A study of Mus musculus with 18 samples.

Results

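The 7 genes described here are chemokine genes of mouse CD8+ T cells, *Xcl1*, *Ccl3*, *Ccl4*, *Ccl5*, *Ccl1*, *Cxcl10* and *Ccl9*, out of 45706 genes listed in each of 18 RNA-seq libraries. They were taken by gene symbol as a family, and *Ccl3* was selected on its fall with ibrutinib in single peptide stimulated cells. For this reason the 7 genes are given without a test in that comparison, and *Ccl3* also without a test wherever single peptide libraries enter. The T cells were purified by negative selection from spleens of CD45.1+ OT-I mice, whose T cell receptor recognizes an ovalbumin (OVA) peptide, and were cultured with IL-15 and IL-7. Single peptide stimulated cells met the peptide once, at the start, and were then washed and rested. Repeat peptide stimulated cells instead received it every day until day 5, after which it was left in the medium until harvest. From day 5 to day 8 both kinds of culture were given 1 µM ibrutinib, an inhibitor of BTK and other Tec family kinases, or only its solvent DMSO, and RNA was taken from live cells on day 8. There were 4 libraries of repeat peptide cells with DMSO, 5 of repeat peptide cells with ibrutinib, 5 of single peptide cells with DMSO and 4 of single peptide cells with ibrutinib.

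The labels name no batch, but libraries share entries in their genotype field, and each entry was read here as an experiment and given a letter from A to F. Experiments A to D gave a library of each of the 4 groups, E a repeat peptide ibrutinib library and F a single peptide DMSO library. The entries are "INHB-1 left over" for A, "btk KO-6" for B, "BTK KO-1" for C, "BTK KO-3" for D, "btk KO-5" for E and "PKC igoni-2" for F, while the strain field calls all mice wild type. The entries of B to E read like a knockout. The study put *btk* deficient OT-I cells through the same kind of culture and ibrutinib treatment for flow cytometry. It describes no *btk* deficient cells in this RNA-seq experiment, so every library was treated as wild type, as in the strain field. What the entries mean could not be checked. Total expected counts per library ran from 23445922 to 51995372. The CD8 T cell markers (*Cd8a*, *Cd8b1*, *Cd3d*, *Cd3e*, *Cd3g* and *Cd5*) summed to between 2349 and 3234 TPM (counts per transcript length, scaled to the same total in every library) in each library. *Cd4* was at most 0.17 TPM, *Adgre1* 0.09, *Csf1r* 0.03, *Clec9a* 0.01 and *Ncr1* 1.16 TPM in any library. Other genes of the marker lists for other cells reached more. Among these were *Zbtb7b* at 20.7, *Foxp3* 8.49, *Klrb1c* 25.2, *Cd79b* 7.08, *Cd68* 6.02, *Lyz2* 5.92, *Itgax* 4.08 and *Kit* 30.6 TPM in their highest libraries.

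Chemokines are small secreted proteins that guide cells through G protein-coupled receptors. Activated CD8+ T cells release *Xcl1* product, which attracts cross-presenting dendritic cells through XCR1, and the products of *Ccl3*, *Ccl4* and *Ccl5*, which attract T cells and myeloid cells. Transcription of *Ccl3*, *Ccl4* and *Xcl1* follows T cell receptor signalling, while *Ccl5* is known as a late gene that memory and effector T cells keep expressed. *Ccl1* encodes the ligand of CCR8, *Cxcl10* an interferon-induced ligand of CXCR3, and *Ccl9* a ligand of CCR1 mostly known from myeloid cells.

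On GRCm38, 5 of the 7 genes lie on chromosome 11. *Ccl5* is at chr11:83525778-83530518, *Ccl9* at chr11:83572919-83578636 and *Ccl3* at chr11:83647844-83649355, all on the minus strand, and *Ccl4* is at chr11:83662584-83664683 on the plus strand, 13229 bases from *Ccl3*. *Ccl1* lies outside this cluster, at chr11:82176657-82305690 on the minus strand. *Xcl1* is at chr1:164931644-164935527 and *Cxcl10* at chr5:92346638-92348889, both on the minus strand. *Xcl1* overlaps *Gm20743* and *Cxcl10* overlaps *Art3* on the opposite strand. The libraries were strand-specific but the strand setting of the counting is not given in the sources used here, and these neighbours had at most 2 counts (*Gm20743*) and 9 counts (*Art3*) in any library.

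The RefSeq promoter table (GRCm38.p6) held 5 of the 7 genes, and the 250 bases before the start are shown for *Ccl3* and *Xcl1*, which were high with repeat peptide, and for *Cxcl10*, which was not. They are at chr11:83649379-83649628, chr1:164935523-164935772 and chr5:92348890-92349139, all on the minus strand. Capitals mark matches, on either strand, to GGAAA (the NFAT core), TGANTCA (AP-1), a GAAA pair with NN between (as in interferon-responsive elements) and the kappaB consensus.
Ccl3: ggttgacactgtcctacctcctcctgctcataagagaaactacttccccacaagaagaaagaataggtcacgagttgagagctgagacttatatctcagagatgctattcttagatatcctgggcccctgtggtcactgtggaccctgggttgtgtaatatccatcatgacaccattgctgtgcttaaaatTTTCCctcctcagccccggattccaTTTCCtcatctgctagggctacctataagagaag
Xcl1: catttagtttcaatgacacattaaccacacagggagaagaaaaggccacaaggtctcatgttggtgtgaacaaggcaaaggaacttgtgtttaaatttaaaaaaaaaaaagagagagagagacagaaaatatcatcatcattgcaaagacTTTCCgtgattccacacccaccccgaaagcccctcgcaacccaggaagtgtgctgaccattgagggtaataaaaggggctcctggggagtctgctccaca
Cxcl10: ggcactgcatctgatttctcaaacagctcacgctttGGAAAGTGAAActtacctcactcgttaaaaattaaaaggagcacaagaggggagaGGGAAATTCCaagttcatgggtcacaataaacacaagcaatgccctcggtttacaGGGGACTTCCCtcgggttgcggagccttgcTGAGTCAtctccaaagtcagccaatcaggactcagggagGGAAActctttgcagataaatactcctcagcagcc
The *Ccl3* window held 2 matches to the NFAT core, 59 to 55 and 34 to 30 bases before the start, and the *Xcl1* window held 1, 100 to 96 bases before it. Neither held a match to the other 3 motifs. The *Cxcl10* window held 3 NFAT core matches, 1 AP-1 match, 3 kappaB matches and 1 interferon element. A GGAAA match there overlaps the interferon element, another lies inside a kappaB match, and 2 of the kappaB matches are the same stretch shifted by 1 base. Of all 32851 windows of this length in the table, 55.6% held the NFAT core, 6.75% AP-1, 7.25% kappaB and 2.98% the interferon element, so the NFAT core match is shared with most promoters. A match is a stretch of letters and says nothing on binding.

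Repeat peptide stimulated cells held far more *Xcl1*, *Ccl3* and *Ccl4* transcript than single peptide stimulated cells, with either treatment. *Xcl1* and *Ccl4* passed the thresholds in both comparisons (edgeR's quasi-likelihood test with an adjusted p-value under 0.05 over all tested genes, a normalized count averaging 50 or more, and a log2 fold change of more than 0.2 in either direction). *Ccl5* went the other way with DMSO and was 2.26-fold lower in repeat peptide cells. In repeat peptide cells none of the 7 genes passed the test for ibrutinib against DMSO, although *Ccl5* passed as higher (log2 fold change 0.80, adjusted p = 0.0288) with the experiment as a block. For ibrutinib in single peptide cells, given without a test, the log2 fold changes were -5.41 for *Ccl3*, -3.02 for *Ccl4* and -2.96 for *Xcl1*. *Ccl3* was selected on this fall. With DMSO, 3 of the 6 tested chemokines passed between repeat and single peptide, 2 higher and 1 lower, where 22.8% of all 12255 tested genes were called higher and 24.2% lower. The same 3 passed with the block, against 26.2% of all genes called higher and 27.4% lower. With ibrutinib, 2 of 6 passed, both higher, against 18.7% of all genes called higher and 19.6% called lower. With the block *Ccl5* was called lower there as well, which makes 3 of 6, against 22.5% of all genes called higher and 26.0% lower. All 7 genes passed the filter on low counts, but the mean normalized counts of *Ccl1* (12.8), *Cxcl10* (23.7) and *Ccl9* (9.31) were under 50, so that those 3 could not be called at any fold.

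**Figure D1:**
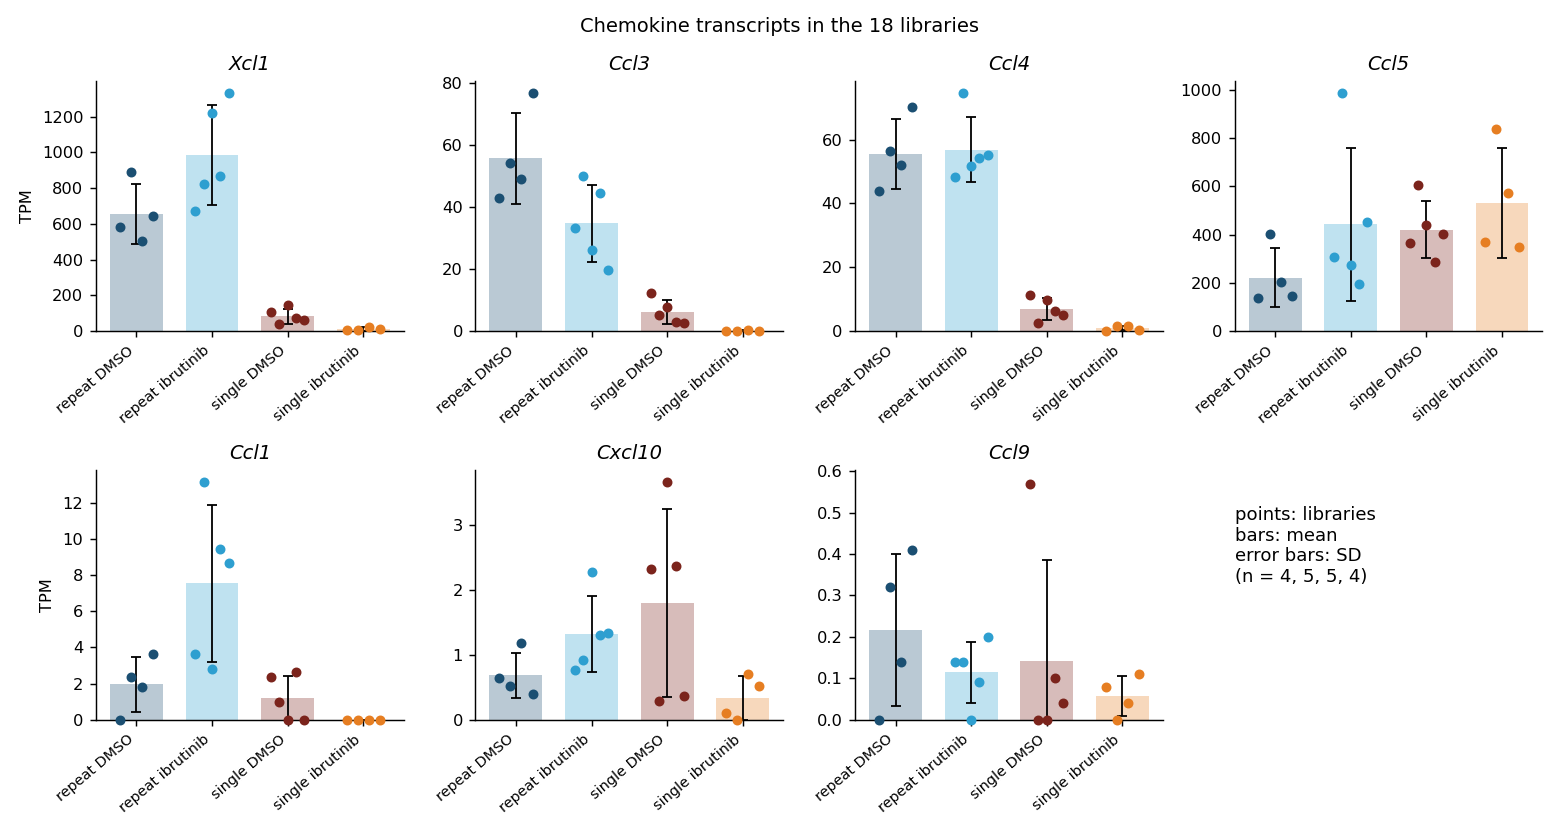
TPM of each chemokine gene (vertical axes, each from 0 and on its own scale) in the libraries of the 4 groups (horizontal axes). Points are libraries, bars group means and error bars SD (n = 4, 5, 5 and 4). *Xcl1*, *Ccl3* and *Ccl4* are high in both repeat peptide groups and near 0 in single peptide cells with ibrutinib, while *Ccl5* is high in all groups.

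Per transcript length, the mix of chemokine transcripts differed between the stimulations. In repeat peptide cells with DMSO, *Xcl1* made up 62.1 to 72.2% and *Ccl5* 15.5 to 28.5% of the summed TPM of the 7 genes. In single peptide cells with DMSO the order was turned, with *Ccl5* at 72.7 to 92.8% and *Xcl1* at 5.76 to 23.8%. With ibrutinib, single peptide cells held almost only *Ccl5* (95.5 to 99.0%), whereas repeat peptide cells had 42.2 to 77.3% *Xcl1*. *Ccl3* and *Ccl4* were level with each other in repeat peptide cells with DMSO, at means of 55.8 ± 14.8 and 55.6 ± 11 TPM (SD, n = 4). The summed TPM was 991 ± 284 (SD, n = 4) in repeat and 520.2 ± 112 (SD, n = 5) in single peptide cells with DMSO. *Ccl9* never exceeded 0.57 TPM. In these bulk samples, fewer expressing cells and less RNA per cell cannot be told apart.

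**Figure D2:**
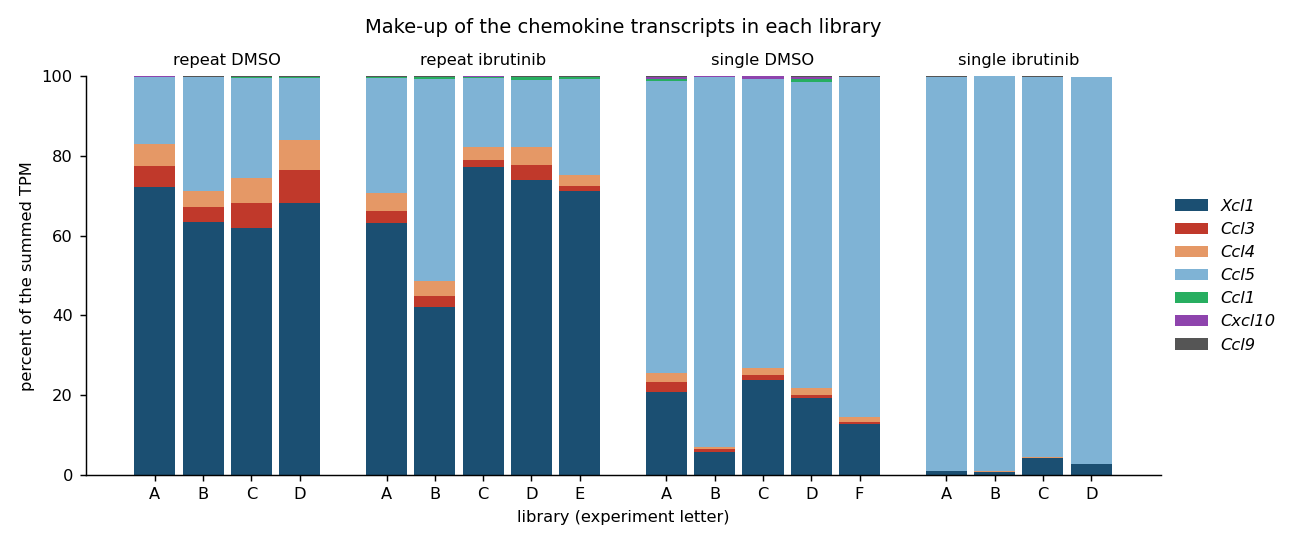
Percent of the summed TPM of the 7 chemokine genes (vertical axis) held by each gene in each library (horizontal axis, by experiment letter within the 4 groups). *Xcl1* takes the largest share in the repeat peptide libraries other than experiment B with ibrutinib, where *Ccl5* takes 50.6%, and *Ccl5* takes the largest share in the single peptide libraries.

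*Xcl1*, the XCR1 ligand, was the most abundant of the 7 in repeat peptide cells. With DMSO these cells had 584, 892, 502 and 642 TPM in experiments A, B, C and D. Single peptide cells with DMSO had 104, 37.6, 145, 71.2 and 60.4 TPM in A, B, C, D and F. The groups did not overlap, and the log2 fold change was 2.72 ± 0.47 (SE, adjusted p = 1.0e-04, higher in 4 of 4 experiments). With ibrutinib, repeat peptide cells had 1333 TPM in E and 670, 824, 1219 and 870.5 TPM in A to D. Single peptide cells with ibrutinib had only 3.73, 6.90, 24.6 and 9.38 TPM in A to D. These groups lay far apart, at a log2 fold change of 6.46 ± 0.62 (SE, adjusted p = 2.7e-07). Between the treatments of repeat peptide cells the libraries overlapped. In log2 CPM (counts relative to the TMM-scaled library total) *Xcl1* was higher with ibrutinib in experiments C and D and lower in A and B, whereas in TPM it was also higher in A. The log2 fold change was 0.77 ± 0.46 (SE, adjusted p = 0.341) and did not pass. In order of median TPM the groups ran from repeat peptide with ibrutinib (870.5) and with DMSO (613) to single peptide with DMSO (71.2) and lastly with ibrutinib (8.14), and in this order only the 2 repeat peptide groups overlapped.

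*Ccl4*, which encodes MIP-1beta, had a similar level in all repeat peptide cultures and a far lower level in single peptide cultures. With DMSO, repeat peptide cells had 43.8, 56.3, 52.2 and 70.2 TPM in A to D, and single peptide cells had 11.2, 2.65, 9.82, 6.30 and 5.12 TPM in A, B, C, D and F. The groups did not overlap (log2 fold change 2.77 ± 0.38, SE, adjusted p = 9.6e-06, higher in 4 of 4 experiments). With ibrutinib, repeat peptide cells had 55.2 TPM in E and 48.4, 74.7, 51.9 and 54.4 TPM in A to D, within the range of the DMSO libraries except for B. Single peptide cells with ibrutinib had 0.13, 1.55, 1.43 and 0.41 TPM, which rest on 1, 11, 14 and 4 counts. The log2 fold change of repeat against single peptide with ibrutinib was 5.94 ± 0.51 (SE, adjusted p = 6.8e-08). For ibrutinib against DMSO in repeat peptide cells it was 0.15 ± 0.36 (SE, adjusted p = 0.855). In log2 CPM the experiments B and C were higher with ibrutinib and A and D lower, whereas in TPM A was higher and C lower.

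*Ccl3* encodes MIP-1alpha, a ligand of CCR1. Repeat peptide cells with DMSO had 43.1, 54.2, 49.1 and 76.9 TPM in A to D, and with ibrutinib 19.8 TPM in E and 33.2, 49.97, 26.2 and 44.6 TPM in A to D. The repeat peptide groups overlapped, with experiments B and D above and A, C and E below the lowest DMSO library. In each of the 4 experiments with both treatments *Ccl3* was lower with ibrutinib, with differences of -0.77 to -0.33 in log2 CPM, and the log2 fold change of -0.62 ± 0.34 (SE) did not pass the test (adjusted p = 0.299). Single peptide cells with DMSO had 12.2, 5.16, 7.68, 2.91 and 2.50 TPM in A, B, C, D and F, below all repeat peptide libraries. With ibrutinib they had 0.10, 0, 0.22 and 0.15 TPM, from 1, 0, 3 and 2 counts. As a description of the values that chose the gene, the 4 ibrutinib libraries held 6 counts together and the 5 DMSO libraries 292. After scaling for library size this is a ratio of 45.7, given without an interval since the gene was selected on it. Repeat peptide cells with ibrutinib held 2002 counts, 266-fold more after scaling, a value that rests on the same 6 counts. Repeat against single peptide with DMSO differed by 3.05 ± 0.37 on the log2 scale (SE), a size near that of *Ccl4* (2.77) and *Xcl1* (2.72).

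Within repeat peptide cells the ratio of *Ccl3* to its neighbour *Ccl4* was lower with ibrutinib. *Ccl3* had 1.304, 1.322, 1.317 and 1.46 counts for each count of *Ccl4* with DMSO in experiments A to D. With ibrutinib it had 0.96, 0.91, 0.71 and 1.10 counts in the same experiments and 0.48 in E. All 5 ibrutinib libraries were below all 4 DMSO libraries. The log2 ratio averaged 0.43 ± 0.078 (SD, n = 4) in the DMSO libraries and -0.33 ± 0.48 (SD, n = 5) in the ibrutinib libraries, which is 1.69-fold lower. The difference was -0.41 to -0.90 within the 4 experiments. This comparison was chosen after the values were seen, so it is a description with no test. The ratio needs no scaling between libraries, since both genes are counted in the same library. Leaving out each of the 9 libraries in turn gave 1.49-fold (without E) to 1.84-fold, with the groups apart each time. The ratio also varied without the drug. In single peptide cells with DMSO, at lower counts, it was 1.465, 2.60, 1.06, 0.61 and 0.67 in A, B, C, D and F. That span holds all repeat peptide values except that of E.

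**Figure D3:**
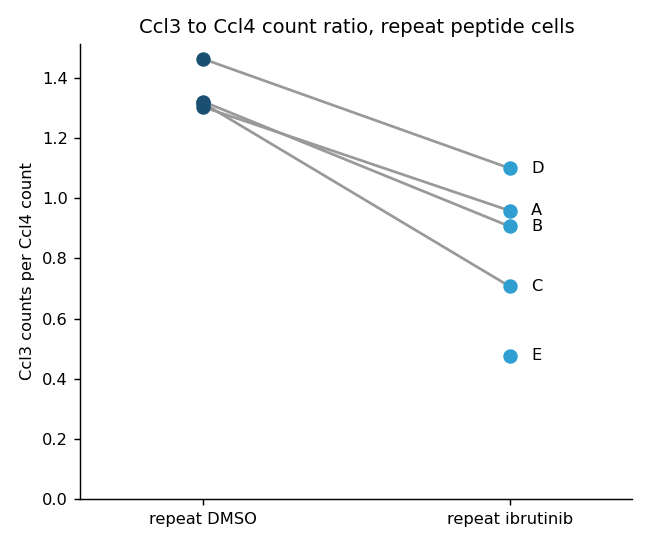
Counts of *Ccl3* per count of *Ccl4* (vertical axis, from 0) in the repeat peptide libraries with DMSO and with ibrutinib. Lines join libraries of the same experiment, and the letters name it. All 4 lines fall, from 1.304 to 1.46 with DMSO to 0.71 to 1.10 with ibrutinib, and the unpaired library E is lowest at 0.48.

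In single peptide cells, where the 7 genes are described without a test, *Ccl4* and *Xcl1* also lay lower with ibrutinib than with DMSO in each of the 4 experiments. The log2 fold changes were -5.41 ± 0.61 for *Ccl3*, -3.02 ± 0.49 for *Ccl4* and -2.96 ± 0.55 for *Xcl1* (SE). The difference of *Ccl4* was smallest in experiment B, at -0.94 in log2 CPM, and lay between -4.81 and -2.57 in A, C and D. *Ccl5* stood apart from these with 0.17 ± 0.40. Whether the ibrutinib difference itself differed between single and repeat peptide cells was not tested for these genes.

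**Figure D4:**
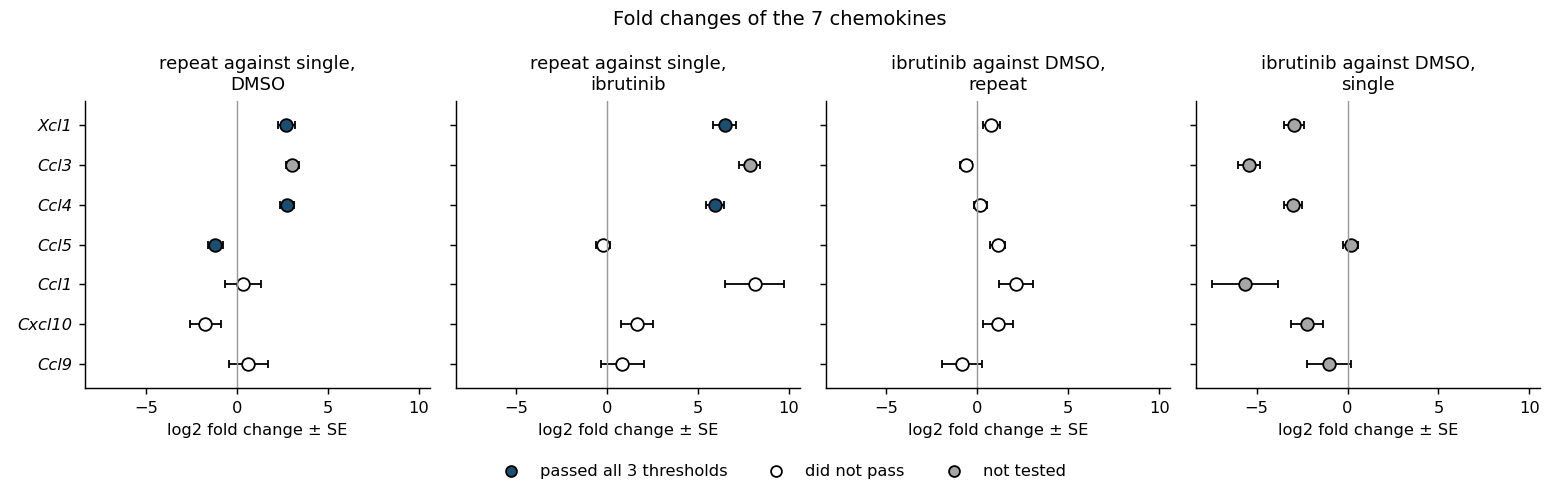
Log2 fold change (horizontal axis, points with SE) of the 7 chemokine genes (vertical axis) in the 4 comparisons. Filled points passed all 3 thresholds, open points did not, grey points were not tested, and the fold of *Ccl1* against single peptide cells with ibrutinib rests on a group without counts. *Xcl1*, *Ccl3* and *Ccl4* lie right of 0 in both stimulation comparisons and left of 0 for ibrutinib in single peptide cells. For ibrutinib in repeat peptide cells *Ccl4* lies at 0.15, *Xcl1* at 0.77 and *Ccl3* at -0.62.

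*Ccl5*, which encodes RANTES, followed another pattern. Repeat peptide cells with DMSO had 137, 401, 203 and 146 TPM in A to D, and single peptide cells with DMSO had 366, 605, 441, 285 and 404 TPM in A, B, C, D and F. The ranges overlapped through experiment B, whose repeat peptide library was the highest, but in all 4 experiments *Ccl5* was lower with repeat peptide. The log2 fold change was -1.18 ± 0.42 (SE, adjusted p = 0.0232), and -1.34 ± 0.22 (adjusted p = 1.6e-04) with the experiment as a block. Without the block this call was lost when repeat DMSO library A (adjusted p = 0.0728), C (0.068) or D (0.0704) or single DMSO library B (0.0623) was left out. With ibrutinib, repeat peptide cells had 451 TPM in E and 305, 988, 275 and 197 TPM in A to D, above the DMSO library of the same experiment in each of A to D. The log2 fold change for ibrutinib in repeat peptide cells was 1.11 ± 0.42 (SE), which missed the threshold (adjusted p = 0.119). With the experiment as a block it was 0.80 ± 0.22 (SE) and passed (adjusted p = 0.0288), and without repeat DMSO library B it was 1.6 and passed as well (adjusted p = 0.0332). Single peptide cells with ibrutinib had 369, 839, 572 and 348 TPM in A to D, between -0.09 and 0.29 from their DMSO partners in log2 CPM. Repeat against single peptide with ibrutinib gave -0.23 ± 0.40 (SE, adjusted p = 0.668), and -0.66 ± 0.22 (SE, adjusted p = 0.0207) with the block, which passed. The library of experiment B was the highest of its group in all 4 groups. In its repeat peptide ibrutinib library *Klrb1c*, a marker of NK cells that T cells also express, was at 25.2 TPM, where the other 2 NK cell markers, *Ncr1* and *Klra8*, were at most 0.42 and 0.13 TPM in that group, and the part of this in *Ccl5* was not tested.

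For ibrutinib in repeat peptide cells, 0 of the 7 chemokines passed edgeR's test, against 4.01% of all tested genes called higher and 1.92% called lower. At an unadjusted p-value under 0.05 there were 2, *Ccl5* and *Ccl1*, where 21.6% of all tested genes were under it. DESeq2's test called 0, against 5.54% of all genes called higher and 3.41% lower. With the experiment as a block, 1 of 7 passed (*Ccl5*), with 8.47% of all genes called higher and 5.35% lower.

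*Ccl1*, the CCR8 ligand, was low throughout and had its highest values in repeat peptide cells with ibrutinib. These had 8.65 TPM in E and 3.62, 13.2, 2.79 and 9.48 TPM in A to D, from 9 to 79 counts. With DMSO, repeat peptide cells had 0, 2.34, 1.82 and 3.66 TPM in A to D and single peptide cells 2.34, 0.96, 0, 2.63 and 0 TPM in A, B, C, D and F. In the 4 single peptide libraries with ibrutinib there was no count, where 29 counts were found in the 5 with DMSO. Pooled over the libraries, the level was at least 9.07-fold lower than with DMSO, taking 3 counts over the group as the limit of a count of 0. Against repeat peptide cells with ibrutinib it was at least 50-fold lower. These limits cover counting error only and not the spread between libraries. The single peptide DMSO libraries C and F had no count either. Of the 29 counts 17 were in library D, and without it the first limit was 4.96-fold. *Ccl1* was higher in 4 of 4 experiments with ibrutinib in repeat peptide cells, with a log2 fold change of 2.13 ± 0.93 (SE, adjusted p = 0.196) that did not pass. Repeat against single peptide had an adjusted p of 9.7e-04 with ibrutinib, at a mean count under 50, and 0.789 with DMSO.

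*Cxcl10*, the interferon-induced CXCR3 ligand, stayed under 4 TPM. Repeat peptide cells had 0.64, 0.52, 1.18 and 0.40 TPM with DMSO in A to D, and 1.34 TPM in E and 0.76, 0.92, 2.27 and 1.3 TPM in A to D with ibrutinib. Single peptide cells had 2.32, 0.28, 3.66, 2.36 and 0.37 TPM with DMSO in A, B, C, D and F, and 0.10, 0, 0.71 and 0.52 TPM with ibrutinib in A to D. The gene was higher with ibrutinib in 4 of 4 experiments with repeat peptide and lower in 4 of 4 with single peptide. None of these differences passed where tested. The log2 fold change was 1.14 ± 0.83 (SE, adjusted p = 0.451) for ibrutinib in repeat peptide cells, -1.73 ± 0.84 (adjusted p = 0.0897) for repeat against single peptide with DMSO and 1.65 ± 0.86 (adjusted p = 0.130) with ibrutinib. With the experiment as a block the last 2 had adjusted p-values of 0.0271 and 0.0335, at a mean count under 50.

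*Ccl9* had 0 to 32 counts per library. Its highest value was 0.57 TPM in the single peptide DMSO library of experiment A, where the other 4 of that group had 0 to 0.10 TPM. In this library *Ccl6*, another myeloid chemokine, was at 2.24 TPM and *Lyz2* at 5.92 TPM, each the highest of all 18 libraries, and the macrophage and monocyte markers summed to 9.17 TPM (4 of 7 reached 1 TPM in some library). In repeat peptide cells *Ccl9* had at most 0.41 TPM. The part of other cells in these values was not tested. No comparison of *Ccl9* passed, with adjusted p from 0.599 to 0.711.

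Among the receptors of these chemokines, *Cxcr3*, the receptor of the *Cxcl10* product, was lower in repeat than in single peptide cells with DMSO (log2 fold change -1.89 ± 0.39, SE, adjusted p = 5.5e-04) and higher with ibrutinib than with DMSO in repeat peptide cells (1.36 ± 0.39, adjusted p = 0.0406), and in both cases all 4 experiments went this way. *Ccr8*, the *Ccl1* receptor, reached 1.20 TPM in a repeat peptide DMSO library, and *Xcr1* at most 0.04 TPM. Of 32 other chemokine genes 2 were tested, *Ccl27a* and *Ccl25*, of which *Ccl25* was lower with repeat peptide and DMSO (log2 fold change -0.63 ± 0.26, adjusted p = 0.0479, not called with the experiment as a block).

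The receptor-induced factors, which T cell receptor signalling switches on, were mostly higher with repeat peptide. With DMSO, 12 of 16 were higher and 1, *Myc*, was lower (median log2 fold change 1.71, against 0.00 over all tested genes). Of all tested genes 22.8% were called higher and 24.2% lower in this comparison. *Nfkb1* (0.64 ± 0.089) and *Nfatc1* (0.60 ± 0.12) rose modestly, *Nr4a3* by 3.63 ± 0.24 (SE), and *Junb* did not pass (0.40 ± 0.34). With ibrutinib in repeat peptide cells 5 of 16 were lower and none higher (median -0.33, against 0.00), among 1.92% of all genes called lower and 4.01% called higher. These were *Irf4*, *Irf8*, *Nr4a1*, *Nr4a2* and *Nr4a3*, for example *Nr4a1* at -1.42 ± 0.30 (SE, adjusted p = 0.00823), whereas *Egr1* (0.13 ± 0.44) and *Egr2* (0.01 ± 0.32) lay near 0, as *Ccl4* did. With the experiment as a block 6 of 16 were lower, with *Egr3* added, among 5.35% of all genes called lower. In single peptide cells 6 of 16 were lower with ibrutinib and none higher (median -0.85, against 0.01), among 2.69% of all genes called lower and 0.351% called higher. *Irf8* was the furthest of these, at -2.91 ± 0.28 (SE, adjusted p = 5.0e-05).

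Among 7 effector cytokine genes 4 were tested. *Ifng*, the gene of interferon-gamma, was higher with repeat peptide (log2 fold change 4.04 ± 0.55 with DMSO, SE, adjusted p = 7.9e-06) and lower with ibrutinib in repeat peptide cells (-1.78 ± 0.49, adjusted p = 0.036) and in single peptide cells (-2.51 ± 0.68, adjusted p = 0.0494). *Csf2*, the gene of GM-CSF, rose by 3.72 ± 0.75 with repeat peptide and DMSO (adjusted p = 4.0e-04). *Tnf* (0.30 ± 0.20, adjusted p = 0.217) and *Lta* (0.06 ± 0.24, adjusted p = 0.851) did not pass in that comparison. Of all genes 22.8% were called higher and 24.2% lower in it. For ibrutinib in repeat peptide cells *Csf2* had -1.96 ± 0.68 (adjusted p = 0.0935), lower in 4 of 4 experiments, and did not pass. *Tnf* was called for ibrutinib in single peptide cells (-1.15 ± 0.21, adjusted p = 0.00655), and in repeat peptide cells its log2 fold change was -0.08 ± 0.20 (adjusted p = 0.867). *Lta* had 0.07 ± 0.24 there.

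The interferon response genes were examined beside *Cxcl10*. For ibrutinib in repeat peptide cells 4 of 12 were higher, *Gbp2*, *Gbp3*, *Gbp4* and *Irf1*, and 1 was lower, *Irf7* (median -0.14), among 4.01% of all genes called higher and 1.92% called lower. *Gbp2*, a guanylate binding protein gene, had a log2 fold change of 1.59 ± 0.23 (SE, adjusted p = 3.8e-04). In single peptide cells 7 of 12 were lower with ibrutinib and none higher (median -0.83), where 2.69% of all genes were called lower and 0.351% higher. Among the 7 were *Gbp2* (-1.23 ± 0.22, adjusted p = 0.00655), *Gbp4* (-0.72 ± 0.19, adjusted p = 0.0489) and *Irf1* (-0.70 ± 0.16, adjusted p = 0.0236). With the experiment as a block, 5 were higher and 3 lower in repeat peptide cells (8.47% and 5.35% of all genes), and 9 were lower in single peptide cells, where 6.32% of all genes were called lower and 2.77% higher. The difference between the ibrutinib effects of the 2 stimulations was not tested for these genes.

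**Figure D5:**
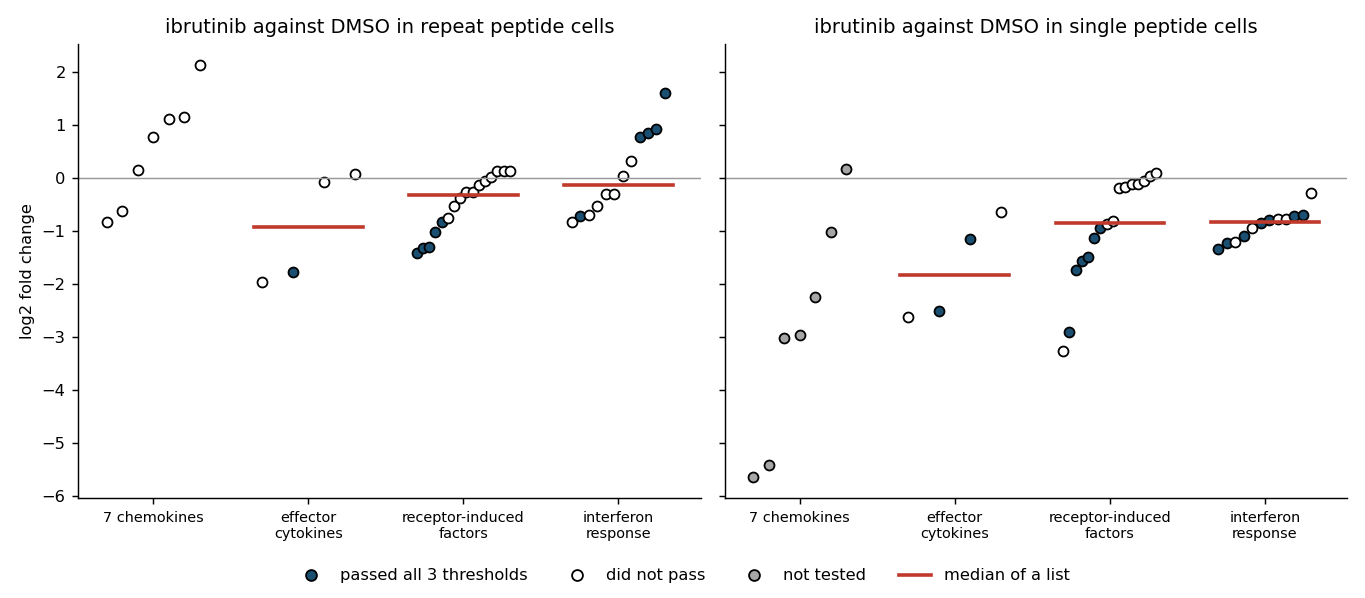
Log2 fold change of ibrutinib against DMSO (vertical axis) for the 7 chemokine genes and the tested genes of 3 lists (horizontal axis) in repeat and in single peptide cells. Filled points passed all 3 thresholds, open points did not, grey points were not tested and red lines are list medians. In repeat peptide cells 4 interferon response genes are higher and 1 is lower, and in single peptide cells 7 are lower.

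The genes whose values over the 18 libraries were most like those of a chemokine were sought by the root mean square (RMS) difference in log2 CPM, each gene centred on its mean. Nearest to *Ccl3* were *Rgs16*, a regulator of G protein signalling, at an RMS difference of 0.869, *Ccl4* (0.881) and *Xcl1* (0.911), where the RMS deviation of *Ccl3* from its own mean was 2.82. Nearest to *Ccl4* were *Xcl1* (0.580), *Rgs16* (0.664) and *Tnfrsf9* (0.728), the gene of the costimulatory receptor 4-1BB. *Xcl1* had *Ccl4*, *Rgs16* (0.886) and *Ccl3* nearest. *Rgs16* had median levels of 46.1 and 26.5 TPM in repeat peptide cells with DMSO and with ibrutinib, and 1.93 and 0.305 TPM in single peptide cells. *Ccl5* varied less (RMS deviation 0.795) and had none of the other 6 chemokines near it. Its nearest genes were *Prkcz* (0.355), an atypical protein kinase C gene, *Gm7160* (0.381) and *Nt5e* (0.400), the gene of CD73. The libraries share their groups and experiments, so these distances describe these libraries only.

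Markers of other cells moved with the stimulation. The neutrophil and mast cell list summed to 11.2 to 31.0 TPM in repeat and 1.52 to 7.35 TPM in single peptide libraries, and most of it was *Kit*, with *Mcpt4* at 0 in all 18 libraries and *S100a8* and *S100a9* above 0 only in repeat peptide ibrutinib library E, at 3.88 and 2.24 TPM. The NK cell list summed to 2.64 to 25.7 TPM in repeat and 0.59 to 3.67 TPM in single peptide libraries, with *Ncr1* at most 1.16 TPM. The CD4 T cell list summed to 5.38 to 21.4 and 2.08 to 12.5 TPM, the B cell list to 1.06 to 4.12 and 3.17 to 7.10 TPM, the macrophage and monocyte list to 3.72 to 8.13 and 0.52 to 9.17 TPM, and the dendritic cell list to 0.71 to 4.33 and 0.22 to 1.72 TPM. Their part in the chemokine differences was not tested.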

How the data were processed

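RNA of OT-I CD8+ T cells was sequenced in 18 libraries of 4 groups, which were taken from the sample labels. The authors trimmed reads with Trim Galore, aligned and quantified them against GRCm38 (Ensembl annotation) with STAR within RSEM 1.3.1, and deposited 1 table of genes for each library. The deposited expected counts are RSEM's estimate of the reads from each gene and can be fractions. TPM values were scaled by the authors for transcript length and library total, and served for levels only. FPKM values were deposited as well and were not used here, and the deposited transcript lengths were not used either.

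Expected counts were rounded to whole numbers, although those of the 7 chemokine genes were whole in all 126 values. Of 45706 genes, 45143 matched GENCODE M21, and 27903 protein-coding or lncRNA genes were kept, of which 12255 passed edgeR's filterByExpr. Libraries were normalized by TMM and the 4 groups fitted together with glmQLFit (robust) and glmQLFTest of edgeR 4.0.16 in R 4.3.3, with limma 3.58.1 and DESeq2 1.42.0 for alternatives. P-values were adjusted by Benjamini-Hochberg over all tested genes and measure the spread between cultures of the experiments. Normalized counts are counts scaled to the average TMM library size, and log2 CPM had a prior count of 2. The limit of 3 counts covers counting error only. The fit was tested on simulated data that held no effect of the experiment, so this test does not cover libraries that deviate together by experiment. Some genes of the lists are not reported here. The members and lists were chosen with earlier results of these data known. The genes named beside the members were those of each list with the largest mean TPM, those called in the comparison, single genes chosen after their values were seen (*Egr1*, *Egr2*, *Ccl6*, *Ccr8*, *Xcr1* and single markers), and for 4 members the 3 genes with the most similar values.

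Libraries of the same experiment deviated together from their group means, as all 24 such pairs of libraries in different groups correlated above 0.1 (0.16 to 0.494). Of 97 pairs from different experiments 7 were above 0.1, the highest at 0.404. The experiments, which were read from the genotype entries of the labels, were therefore taken to pair the libraries. The fit has no block, and the block is an alternative. No 2 libraries of a group agreed within sampling noise (their chi-square was at least 27.9 for each degree of freedom). Alternatives were DESeq2's size factors and Wald test, no threshold on the mean count, no filter on low counts, the block, only the compared groups, limma on log2(TPM + 1), only experiments A to D, and each library left out. Promoters are RefSeq's on GRCm38.p6.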

Additional observations from a re-analysis of the deposited data

Results flagged for a closer look

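For each chemokine gene and group the highest and the lowest library were set against the others, which makes 28 groups, and chance alone marks about 1 in 20. In 2 groups a library stood apart. *Ccl5* had a normalized count of 1695 in the repeat peptide DMSO library of experiment B, where the other 3 had 596 to 708. *Ccl9* had a normalized count of 36.5, from 32 counts, in the single peptide DMSO library of experiment A, where the other 4 had 0 to 8.33. *Cxcl10* was marked because its difference between ibrutinib and DMSO had opposite directions in all experiments of the 2 stimulations, with log2 fold changes of 1.14 in repeat and -2.24 in single peptide cells. The difference between the 2 was not tested.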

How the results depend on the processing

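For *Xcl1* and *Ccl4* the direction and the call in repeat against single peptide cells held under all alternatives run, with log2 fold changes of 2.54 to 3.07 and 2.57 to 2.95 with DMSO and 6.06 to 7.25 and 5.01 to 6.42 with ibrutinib. The call of *Ccl5* with DMSO was also lost without the filter on low counts (-1.19, adjusted p = 0.0685), and its adjusted p ranged from 1.6e-04 to 0.0728. For ibrutinib in repeat peptide cells, the number of chemokines called was 1 with the replicate block and 0 to 1 with a library left out. *Ccl3* ranged from -0.78 to -0.36 there (adjusted p 0.202 to 0.670). *Ccl4* turned to -0.01 with only experiments A to D or without repeat ibrutinib library E and ranged from -0.01 to 0.36 over the libraries left out. *Ccl1* turned to -0.24 for repeat against single peptide with DMSO without repeat DMSO library D, and ranged from -0.24 to 1.13. The log2 ratio difference of *Ccl3* to *Ccl4* was -0.88 to -0.57 with a library left out.

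Over all genes, 726 were called for ibrutinib in repeat peptide cells, 1118 by DESeq2, 1694 with the replicate block, 464 with only the compared groups, 391 by limma and 354 to 874 with a library left out. In single peptide cells these counts were 373, 601, 1114, 181, 161 and 131 to 391. With ibrutinib, repeat against single peptide gave 4703 calls and 2994 by limma. Some of these settings used fewer libraries, and causes of the changed counts were not tested. Beside the calls of *Ccl5* the replicate block changed no other call of a chemokine. Settings in which *Ccl9* or *Ccl1* failed the filter on low counts gave no value for it. Counts under 4 in a library, as for *Ccl3* in single peptide cells with ibrutinib, limit its fold change.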
